A study of Mus musculus with 3 samples.

Results

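Gsc Eomes cells are single cells of the gastrulating mouse embryo that held at least 1 unique molecular identifier (UMI, one captured RNA molecule) of Gsc and at least 1 of Eomes, none of Sox17, and under 0.1% of their UMIs from the serum protein genes Ttr, Apoa1, Apoc2, Rbp4, Apob and Afp. The rule was applied to raw counts of barcodes with at least 1000 genes detected and no more than 10% of UMIs from mitochondrial genes. It selected 1327 of 21573 kept cells, of which 1221 came from embryonic day 7.0 (E7.0), 44 from E7.25 and 62 from the posterior region of E7.5 embryos. All embryos were normal, untreated and of the ARC mouse strain, and were dissociated with trypsin and passed through a 40 µm strainer. Each stage was 1 library of the 10x Genomics 3' assay, version 3.0 or 3.1, loaded for 10000 cells. The number of embryos in each suspension is not given in the sources used here. With 1 library per group there is no replicate check and no test was run. Every interval below is exact, at 95%, and covers counting error only. Stage cannot be told apart from library, nor, for the E7.5 cells, from the region that was dissected.

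During gastrulation epiblast cells move through the primitive streak and become mesoderm or definitive endoderm. EOMES is a T-box factor needed for both fates, and Gsc encodes a homeobox factor of the organiser at the anterior end of the streak, the region whose cells form node, notochord and prechordal tissue and secrete antagonists of BMP, WNT and NODAL. LHX1, FOXA2 and the activin antagonist FST are further markers of this region, while Mesp1 and Mesp2 mark mesoderm leaving the streak and Sox17 marks endoderm.

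The deposited files held 10232, 6173 and 11468 barcodes and 111010034, 48836272 and 92190474 UMIs at E7.0, E7.25 and posterior E7.5, of which 7941, 5194 and 8438 cells were kept. Libraries shared 14 to 35 cell barcodes, and at most 4 of those shared by a pair of libraries belonged to a Gsc Eomes cell. A median Gsc Eomes cell had 12850, 8730 and 11140 UMIs at the 3 stages, against 11046.5, 8296 and 9243.5 UMIs in the other kept cells. Predicted doublets, barcodes that resemble 2 cells, made up 11.5%, 2.27% and 11.3% of the Gsc Eomes cells, against 5.40%, 4.17% and 6.72% of the other kept cells.

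The abundance of the cells was very unlike between the libraries. They were 15.4% of the kept E7.0 cells (interval 14.6 to 16.2%), 0.847% of the E7.25 cells (0.616 to 1.14%) and 0.735% of the posterior E7.5 cells (0.564 to 0.941%). E7.0 stood far above the later libraries, and the intervals of E7.25 and posterior E7.5 overlapped. At each stage Eomes was found more often than Gsc: 4901, 1203 and 1887 kept cells had an Eomes UMI, and 1866, 121 and 139 had a Gsc UMI. Of the cells with both, 386 of 1639 E7.0 cells, 20 of 70 E7.25 cells and 12 of 75 posterior E7.5 cells also held Sox17 and were left out.

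Gsc was counted at few molecules per cell. The median Gsc Eomes cell had 1 Gsc UMI at each stage and the highest had 25, 11 and 11, while the median number of Eomes UMIs was 4, 2 and 2. A single Gsc UMI was the whole evidence for 637 E7.0 cells (52.2%), 32 E7.25 cells (72.7%) and 44 posterior E7.5 cells (71.0%). After each cell was thinned to 5000 UMIs, 55.3% of the E7.0 cells still held a Gsc UMI. Since these cells were chosen for a Gsc UMI, this share cannot be set against the thinned shares of other cells. Cells that should lack Gsc give the background. Among cells with Elf5, a gene of extraembryonic ectoderm, and at least 1 other marker of that tissue, 4.35%, 2.23% and 0 of 11 had a Gsc UMI at the 3 stages, at median depths of 14060.5, 9903 and 10708 UMIs. The count of 0 allows a share of up to 27.3%. Over all kept cells the share was 23.5% at E7.0, well above the Elf5 cells, but 2.33% at E7.25, close to them, and 1.65% at posterior E7.5, within what the 11 Elf5 cells allow. Of the posterior E7.5 cells with 1% or more serum gene UMIs, 0.270% had a Gsc UMI, at a median depth of 7579 UMIs. After thinning, the Elf5 cells gave 1.15% at E7.0 (1 of 87) and 0.377% at E7.25.

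**Figure D1:**
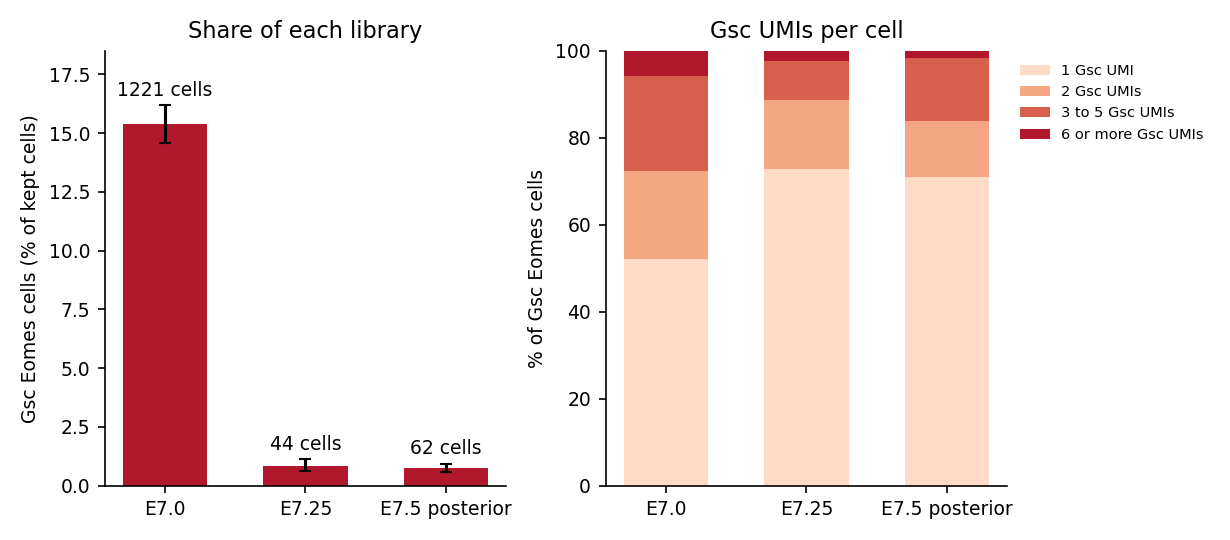
Left, Gsc Eomes cells as a percentage of the kept cells of each library, with exact 95% Clopper-Pearson intervals and cell numbers above the bars. Right, the percentage of these cells with 1, 2, 3 to 5, or 6 or more Gsc UMIs. The E7.0 bar stands at 15.4% and both later bars are under 1%. A single Gsc UMI was most frequent at every stage.

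The cells met the name of anterior streak in part. Of the 3 markers that the rule did not use, Lhx1 was found in 84.9% of the E7.0 cells, Fst in 65.8% and Foxa2 in 23.8%. At least 1 of the 3 was present in all but 19 of 1221 cells (1.56%). It was also present in all but 13.7% of 2825 cells with Eomes but no Gsc and 25.1% of 6720 other kept cells. All 3 were present in 169 Gsc Eomes cells (13.8%), against 2.19% of cells with Eomes but no Gsc and 2.95% of other kept cells. These shares were not taken at equal depth. Yet 77.4% of the E7.0 cells held Mesp1, a mesoderm gene. Fst did not separate the cells from others with Eomes (205 and 206 counts per 1000000 UMIs, or CPM). They are therefore called Gsc Eomes cells here.

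To see what goes with Gsc among Eomes cells, the 1221 cells of E7.0 were compared with 2825 cells that had Eomes and neither Gsc nor Sox17, under the same serum gene limit. Lhx1, a LIM homeobox factor, Tdgf1, the NODAL co-receptor known as Cripto, the homeobox gene Mixl1 and the endoderm and mesoderm factor Gata6 were higher, together with Hes1, a NOTCH target. These were the 5 genes higher by 2-fold or more among 2703 genes at 50 CPM or more in either population (0.185%), and 6 were lower (0.222%). Lhx1 stood at 858 CPM in Gsc Eomes cells and 304 CPM in Eomes cells without Gsc, a log2 ratio of 1.50 (1.46 to 1.53). Mixl1 stood at 125 CPM in Gsc Eomes cells and 45.1 CPM in Eomes cells without Gsc, a log2 ratio of 1.46 (1.38 to 1.55). Tdgf1 stood at 537 CPM in Gsc Eomes cells and 254 CPM in Eomes cells without Gsc, a log2 ratio of 1.08 (1.04 to 1.12). None of these intervals reached 0. Gata6 had 72.7 against 30.4 CPM, a log2 ratio of 1.26, and Hes1 had 151 against 71.6 CPM, a log2 ratio of 1.07. Fgf8, a growth factor of the streak, Cyp26a1, which degrades retinoic acid, and the protocadherin gene Pcdh7 came next, below 2-fold, at log2 ratios of 0.94, 0.91 and 0.87.

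Tdgf1 is shown with its promoter because FOXH1, the DNA-binding partner of the NODAL effectors SMAD2 and SMAD3, is known to act at genes of this pathway, and Gsc because it defines the cells. The 250 bases before the start are printed 5′ to 3′ from RefSeq on GRCm38.p6, with Tdgf1 at chr9:110946159-110946408 and Gsc at chr12:104473237-104473486, both on the minus strand. Capitals mark the FOXH1 motif AATNNACA and the homeodomain motif TAATTA, searched on both strands with SMAD CAGACA, bicoid-type homeodomain TAATCC, T-box AGGTGTGA and FOXA TGTTTAC.
Tdgf1: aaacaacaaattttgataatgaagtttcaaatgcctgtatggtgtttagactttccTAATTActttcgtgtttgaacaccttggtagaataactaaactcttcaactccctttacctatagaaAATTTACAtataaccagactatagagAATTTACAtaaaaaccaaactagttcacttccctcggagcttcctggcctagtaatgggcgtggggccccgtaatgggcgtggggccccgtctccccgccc
Gsc: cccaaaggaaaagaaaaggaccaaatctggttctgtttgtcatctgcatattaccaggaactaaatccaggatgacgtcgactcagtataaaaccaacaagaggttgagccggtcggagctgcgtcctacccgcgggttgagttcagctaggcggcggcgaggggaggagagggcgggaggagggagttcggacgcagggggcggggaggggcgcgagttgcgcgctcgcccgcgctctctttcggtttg
The Tdgf1 window held AATNNACA 127 and 101 bases before the start and TAATTA 194 bases before it, with no overlap. Both AATNNACA matches read AATTTACA, and whether FOXH1 binds with these middle bases was not tested. Of 32851 promoters of this length, 10.9% held AATNNACA at least 1 time, 1.12% held it 2 or more times, and 4.84% held TAATTA. None of the 6 motifs was found in the Gsc window, which says only that these letters are not there. The windows of Eomes, Lhx1, Foxa2, Mesp1, Chrd, Cer1, Snai1 and Otx2 were searched as well. AATNNACA was found in a window of Otx2 and in none of the other 7 genes, TAATTA was found for Cer1 and Otx2, CAGACA for Cer1 and TAATCC for Otx2. No promoter sequence was available for Mixl1, Gata6 and Hes1, which were higher in Gsc Eomes cells, nor for Foxj1, Lefty2 and Fst. Those genes were not searched. A match is a description of the sequence and not a measured site.

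The genes lower in Gsc Eomes cells included epiblast genes. Pou3f1 had 34.2 CPM in Gsc Eomes cells and 109 CPM in Eomes cells without Gsc, a log2 ratio of -1.67, and Utf1 had 61.0 against 170 CPM, a log2 ratio of -1.47. Rhox5, a gene of extraembryonic tissue, was lowest, at a log2 ratio of -3.19. The metallothionein gene Mt1 (-1.06) and Arl4c (-1.22) were also past 2-fold. The 8 extraembryonic ectoderm markers, Elf5 among them, summed to 3.59 CPM in Gsc Eomes cells and 23.1 CPM in Eomes cells without Gsc, and 0.41% and 3.15% of cells in the same 2 populations held 2 or more of them. Their part in the lower genes was not tested. T, the streak gene that encodes brachyury, was not among the genes that differed, at 120 against 137 CPM and a log2 ratio of -0.20.

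Gene lists, counted over genes at 20 CPM or more in either population, describe the same comparison more broadly. Of 9 measured streak genes, Mixl1, Lhx1 and Foxa2 were higher by 2-fold or more and none was lower. The median log2 ratio of the list was 0.68, beside 0.00 over all genes at 50 CPM or more. Foxa2 stood at 42.4 against 12.7 CPM, a log2 ratio of 1.74 (1.58 to 1.90). Of 14 epiblast genes none was higher, and Sox2, Utf1, Pou3f1 and Slc7a3 were lower, with a median of -0.51. Of 9 mesoderm genes only Gata6 was past 2-fold, with a median of 0.55; Mesp1 itself was at 1084 against 738 CPM, a log2 ratio of 0.55. Of 6 NODAL pathway genes only Tdgf1 was past 2-fold, and of 8 WNT and 9 FGF pathway genes none was. Id2, a target of BMP signals, was the single gene of 9 in the BMP list past 2-fold, at 8.83 against 25.6 CPM. The 16 S phase genes and 17 genes of G2 and M phase had none past 2-fold, with medians of -0.05 and -0.01.

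Against all 6720 other kept cells of E7.0, 11 of 2762 genes were higher by 2-fold or more (0.398%) and 46 were lower (1.67%). Mixl1 led at a log2 ratio of 1.89 (1.81 to 1.97), at 125 against 33.6 CPM, followed by Tdgf1 at 1.48, Lhx1 at 1.35 and Snai1, a repressor of epithelial genes, at 1.26. Cdh11, a mesenchymal cadherin, Mesp1, Gata6 and Fgf8 were also in this group. The lowest ratios were those of visceral endoderm genes such as Cubn (-5.04), which encodes an uptake receptor, and Amn (-4.97), its partner. Since the rule sets a ceiling on serum protein genes, this side was in part fixed by the choice of cells. Of 9 epithelial genes 5 were lower, among them the keratin genes Krt8 and Krt18, while 2 of 7 genes of epithelial to mesenchymal transition, Snai1 and Cdh11, were higher.

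Shares of cells gave the same order for Lhx1, Foxa2 and Mesp1 at equal depth. After thinning to 5000 UMIs, which left out 15 of the 1221 cells, Lhx1 was found in 79.7% of Gsc Eomes cells (77.3 to 81.9%), 43.7% of Eomes cells without Gsc and 6.90% of Elf5 cells. Foxa2 was found in 14.1% of Gsc Eomes cells (12.2 to 16.2%), 4.47% of Eomes cells without Gsc and 2.30% of Elf5 cells. Mesp1 was found in 70.5%, 57.1% and 11.5% of the same 3 populations. After the same thinning Fst was found in 44.9% of Gsc Eomes cells and 47.0% of Eomes cells without Gsc. Visceral endoderm is known to express Lhx1 and Foxa2, and cells with 1% or more serum gene UMIs showed Lhx1 in 28.2% and Foxa2 in 111 of 556, so the Elf5 cells serve as the background here. Unthinned, the Lhx1 share was 84.9% in Gsc Eomes cells, 54.2% in Eomes cells without Gsc and 17.4% in Elf5 cells.

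**Figure D2:**
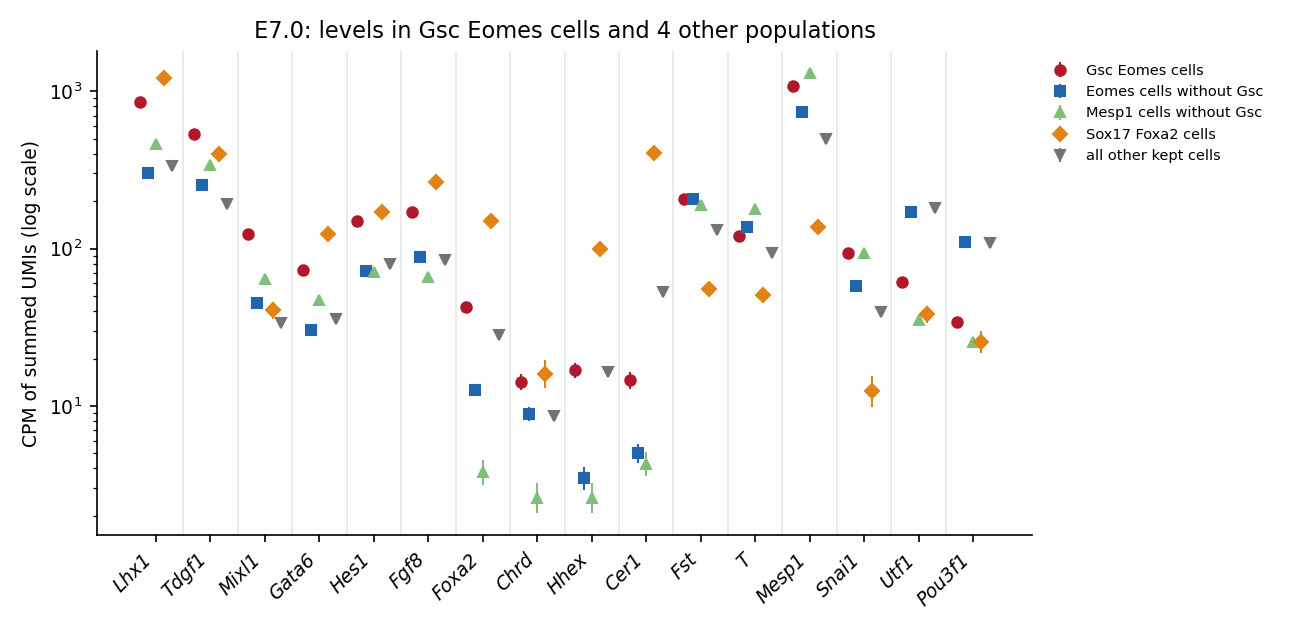
Level (CPM of summed UMIs, log scale) of 16 genes at E7.0 in Gsc Eomes cells and in 4 other populations, with exact 95% Poisson intervals. Gsc Eomes cells are highest for Mixl1 and Tdgf1 and stand between Sox17 Foxa2 cells and Eomes cells without Gsc for Lhx1. They lie above Eomes cells without Gsc for Foxa2 and below them for Utf1 and Pou3f1. The Foxa2 level of Sox17 Foxa2 cells is high by definition, since each was chosen for a Foxa2 UMI.

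As references on the endoderm and mesoderm sides, 2 populations were chosen, and no distance between populations was measured. They were the Sox17 Foxa2 cells, 402 cells with a UMI of both genes, and 2232 cells with 2 or more Mesp1 UMIs but no Gsc. The Mesp1 cells were not chosen by Eomes, so they can overlap the Eomes cells without Gsc. Against the Sox17 Foxa2 cells, 28 of 2765 genes were higher (1.01%) and 39 were lower (1.41%). Mesp1 (log2 ratio 2.99), Snai1 (2.91), Fgf3 (2.80) and Lefty2 (2.68), an inhibitor of NODAL, were higher, and Cer1 (-4.80), a secreted antagonist of BMP, WNT and NODAL, Dkk1 (-2.68), a WNT antagonist, and the anterior endoderm factor Hhex (-2.55) were lower. Of 9 mesoderm genes 7 were higher, and of 9 endoderm genes 7 were lower. Against the Mesp1 cells only 4 of 2684 genes were higher (0.149%), namely Fgf8 (1.37), Fgf5 (1.30), Hes1 (1.08) and the claudin gene Cldn7 (1.04), and only Phlda2 (-1.30) was lower (0.0373%). By this count the Gsc Eomes cells had fewer genes past 2-fold against the Mesp1 cells than against the Sox17 Foxa2 cells. This contrast was in part fixed by the choice of cells. Gsc Eomes cells and Mesp1 cells were both chosen to lack Sox17, which each Sox17 Foxa2 cell held, and most Gsc Eomes cells held Mesp1. How much the numbers of cells in each population add to that contrast was not tested.

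The Gsc Eomes cells of E7.0 were not uniform, and Foxa2 and Mesp1 divided them. Of the 1221 cells, 815 held Mesp1 without Foxa2, 161 Foxa2 without Mesp1, 130 both and 115 neither. At equal depth the pair rarely met: Mesp1 was found in 19.4% of 170 cells with Foxa2 and in 78.9% of 1036 cells without it. Cells with both had the highest median depth, 16638 UMIs, and 31 of 130 were predicted doublets, against 13 of 161 with Foxa2 only at a median of 11685 UMIs. The part of doublets and depth in the cells with both was not tested. Other cells of E7.0 were divided the same way at equal depth. In Eomes cells without Gsc, Mesp1 was found in 14.8% of 122 cells with Foxa2 and in 59.1% of 2608 without it. In all other kept cells it was found in 9.92% of 635 cells with Foxa2 and in 43.8% of 5486 without it.

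Node genes went with Foxa2. The 291 cells with Foxa2 were higher by 2-fold or more than the 930 without it in 17 of 2753 genes (0.618%) and lower in 21 (0.763%). Predicted doublets were 15.1% of the cells with Foxa2 and 10.4% of those without it. Foxj1, which drives the genes of motile cilia, stood at 53.2 CPM in cells with Foxa2 and 4.12 CPM in cells without it, a log2 ratio of 3.69 (3.28 to 4.12). Chrd, the BMP antagonist chordin, stood at 42.6 CPM in cells with Foxa2 and 4.67 CPM in cells without it, a log2 ratio of 3.19 (2.79 to 3.61). Of 5 measured node and notochord genes 4 were higher, the other 2 being Ccno and Mlf1. The median of the list was 2.85, beside -0.03 over all genes at 50 CPM or more. T, the fifth, was at 0.72. The node homeobox gene Noto was rare, with 61 UMIs in all, and had 9.38 CPM in cells with Foxa2 and 1.03 CPM in cells without it. Hhex (log2 ratio 2.31) and Cer1 (2.65) moved the same way. Calca, the calcitonin gene, stood at 70.3 against 9.33 CPM.

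Epithelial genes were also higher with Foxa2, at 6 of 8, namely Cdh1, Krt8, Krt18, Cldn6, Cldn7 and Esrp1, with a median of 1.19. E-cadherin, encoded by Cdh1, had 48.5 CPM in cells with Foxa2 and 23.4 CPM in cells without it. On the other side, 9 of 10 mesoderm genes were lower, with a median of -1.90. They included Mesp1 (360 against 1328 CPM), the VEGF receptor gene Kdr (7.75 against 45.4 CPM) and the PDGF receptor gene Pdgfra (9.38 against 45.8 CPM). Snai1, Twist1 and fibronectin, Fn1, were lower among 8 genes of epithelial to mesenchymal transition. Lhx1 (796 against 879 CPM), Mixl1 and Tdgf1 were near equal, at log2 ratios of -0.14, -0.01 and -0.16.

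The 4 subsets show these genes in more detail. Chrd stood at 62.4 CPM in cells with Foxa2 only, 27.6 CPM in cells with both genes, 26.0 CPM in cells with neither and 2.01 CPM in cells with Mesp1 only. The intervals of the cells with both and with neither overlapped. Lefty2 ran the other way, at 5.20, 110, 11.8 and 308 CPM in the same 4 subsets, and so did the growth factor gene Fgf3, at 2.84, 39.4, 4.95 and 146 CPM. The cells with neither gene held the most Utf1 (256 CPM, against 102, 54.5 and 31.4 CPM in cells with Foxa2 only, both and Mesp1 only) and the most Pou3f1 (147 CPM, against 33.6, 27.6 and 21.7 CPM). They also had the least Lhx1, at 345 CPM, against 752 to 945 CPM in the other 3 subsets. T was highest in the cells with both genes, at 189 CPM, and lowest in the cells with neither, at 55.1 CPM. The same division by Mesp1 alone gave 35 of 2770 genes higher (1.26%) and 33 lower (1.19%) in cells with Mesp1, with Lefty2 and Fgf3 at a log2 ratio of 5.08 each.

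**Figure D3:**
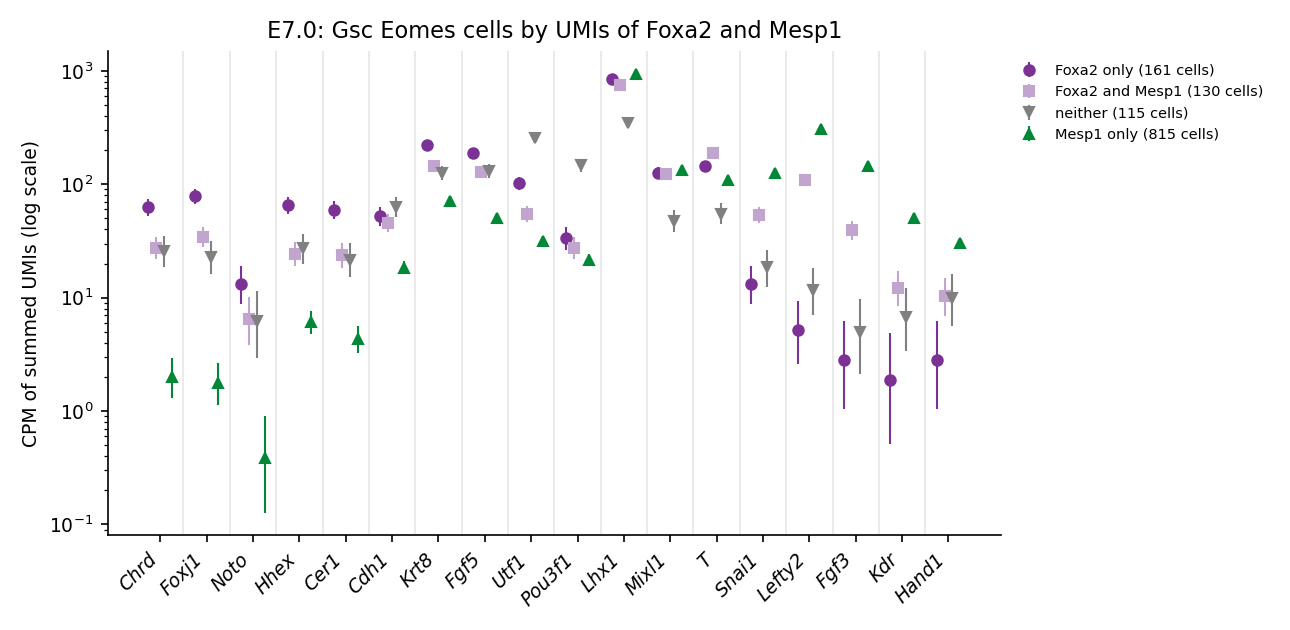
Level (CPM of summed UMIs, log scale) of 18 genes in 4 subsets of the E7.0 Gsc Eomes cells, defined by a UMI of Foxa2 and of Mesp1, with exact 95% Poisson intervals. Chrd, Foxj1, Hhex and Cer1 are highest with Foxa2 only, Lefty2, Fgf3, Kdr and Hand1 with Mesp1 only, and Utf1 and Pou3f1 with neither.

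The number of Gsc UMIs in a cell went with a similar order. Cells with 1, 2, 3 to 5, and 6 or more Gsc UMIs numbered 637, 247, 265 and 72, and their median depth was 11950, 13344, 13690 and 18624 UMIs. Foxa2 stood at 21.1, 34.1, 67.5 and 116 CPM in these 4 strata, Cer1 at 7.84, 11.0, 19.8 and 46.7 CPM and Hhex at 7.84, 14.4, 29.8 and 39.4 CPM. Chrd stood at 8.79, 12.8, 18.7 and 36.4 CPM. Mixl1 had 80.2, 152, 167 and 197 CPM. Each was lowest in cells with 1 Gsc UMI and highest in cells with 6 or more. Pou3f1 was highest with 1 Gsc UMI, at 46.1, 29.5, 19.6 and 17.6 CPM. Mesp1 was highest at 2 Gsc UMIs (1248 CPM) and lowest at 6 or more (709 CPM), and Hand1, a factor of lateral and extraembryonic mesoderm, was at 30.3 CPM with 1 Gsc UMI and at 0.61 CPM, a single UMI, with 6 or more. Depth moved with the strata, and its part in the order was not tested.

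**Figure D4:**
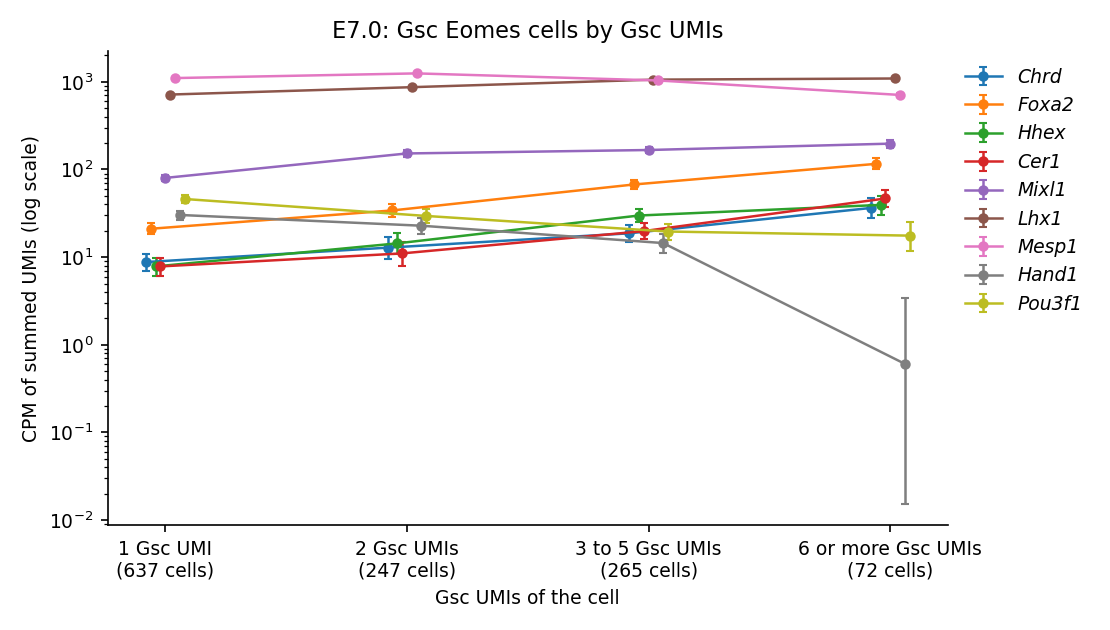
Level (CPM of summed UMIs, log scale) of 9 genes in E7.0 Gsc Eomes cells with 1, 2, 3 to 5, and 6 or more Gsc UMIs, with exact 95% Poisson intervals. Foxa2, Cer1, Hhex, Chrd, Mixl1 and Lhx1 are highest in the last stratum, and Hand1 and Pou3f1 are lowest there.

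Cells just outside the rule were near those inside on some genes and far on others. At E7.0, 60 cells that met every other condition had 1 Sox17 UMI and 235 had 2 or more. Cer1 stood at 14.5 CPM with no Sox17 UMI, 160 CPM with 1 and 428 CPM with 2 or more, and Mesp1 at 1084, 356 and 151 CPM. On the side of Gsc and Eomes, 120 cells held exactly 1 UMI of each, 110 held 1 of Gsc and none of Eomes, and 1054 held 1 of Eomes and none of Gsc. Lhx1 stood at 682, 381 and 217 CPM in these 3 sets, and Utf1 at 96.8, 299 and 232 CPM. The serum gene limit had few cells beside it, with 4 cells between 0.05% and 0.1% and 6 between 0.1% and 0.2%.

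The later libraries ask whether the few Gsc Eomes cells found there resembled those of E7.0. Lhx1, Tdgf1, Cyp26a1 and Fgf5 are 4 genes that were much lower later in the other cells and less so in the Gsc Eomes cells. Lhx1 stood at 858, 589 and 708 CPM in Gsc Eomes cells at E7.0, E7.25 and posterior E7.5, while all other kept cells had 337, 58.6 and 63.0 CPM. For posterior E7.5 against E7.0 the log2 ratio of Lhx1 was -0.28 (-0.40 to -0.15) in Gsc Eomes cells and -2.42 in the other cells. The ratios of Tdgf1 were -0.61 in Gsc Eomes cells and -2.23 in the other cells. Those of Cyp26a1 were -0.17 and -2.03, and those of Fgf5, a growth factor of the epiblast, were -0.41 and -1.89. At E7.25 against E7.0 the same 4 genes were at -0.54, -0.74, -0.98 and 0.12 in Gsc Eomes cells, and at -2.52, -2.19, -1.89 and -1.81 in the other cells. The 4 genes were named for this pattern, so the fact that all of them show it is no separate result, and counts over all genes follow below. None of the 4 was past 2-fold in Gsc Eomes cells and all 4 were in the others. For Cyp26a1 this rested on 1 cell, which gave 10 of 40 UMIs at E7.25, and without it Cyp26a1 had 68.5 CPM, against 174 CPM at E7.0, past 2-fold. The difference between the 2 kinds of cells was not tested.

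In the later libraries too, the cells stood apart from Eomes cells without Gsc. At E7.25, Lhx1 had 589 against 91.8 CPM and Tdgf1 had 321 against 90.5 CPM, with 19 of 3047 genes higher (0.624%) and 19 lower (0.624%). At posterior E7.5, Lhx1 had 708 against 108 CPM, Foxa2 had 65.0 against 8.66 CPM and Cyp26a1 had 155 against 39.7 CPM, with 17 of 2854 genes higher (0.596%) and 7 lower (0.245%). Streak genes past 2-fold were Mixl1, Lhx1, Foxa2 and the WNT target Sp5 at both stages. Without the highest cell, Mixl1 had 64.0 against 35.8 CPM and Sp5 had 127 against 65.6 CPM at E7.25, and Sp5 had 219 against 110 CPM at posterior E7.5, all under 2-fold. The extraembryonic ectoderm markers moved with this comparison at E7.25. They summed to 55.0 CPM in Gsc Eomes cells and 159 CPM in Eomes cells without Gsc, and 6.82% and 18.9% of the cells held 2 or more. At posterior E7.5 the sums were 6.50 and 10.9 CPM. The part of these cells in the ratios was not tested. T and Fst were not: at posterior E7.5 T had 273 against 285 CPM and Fst had 212 against 232 CPM. After thinning, Lhx1 was found in 56.1% and 69.4% of Gsc Eomes cells at E7.25 and posterior E7.5, 18.3% and 24.6% of Eomes cells without Gsc, and 2.26% and 0 of 11 Elf5 cells.

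Against all other kept cells of their own library, 26 of 3090 genes were higher at E7.25 (0.841%) and 72 were lower (2.33%), and at posterior E7.5 24 of 2891 were higher (0.83%) and 29 were lower (1%). Of 9 FGF pathway genes at 20 CPM or more at posterior E7.5, 5 were past 2-fold, the ligands Fgf3, Fgf5 and Fgf8 and the feedback inhibitors Dusp6 and Spry4. Without its highest cell Fgf3 had 63.9 CPM in Gsc Eomes cells, against 33.5 CPM in the other cells, and was no longer past 2-fold. The caudal genes Cdx2 (27.3 against 59.2 CPM) and Hoxb1 (32.5 against 73.9 CPM) were lower, as was Aldh1a2, which makes retinoic acid, at 5.20 against 22.2 CPM.

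Within the Gsc Eomes cells, some node genes were higher in the posterior E7.5 library than in the E7.0 library. In this comparison 9 of 2859 genes were higher (0.315%) and 23 were lower (0.804%). The other kept cells had 11 of 2834 higher (0.388%) and 32 lower (1.13%). T stood at 273 CPM at posterior E7.5 and 120 CPM at E7.0, a log2 ratio of 1.19 (0.98 to 1.39), close to the 1.25 of the other kept cells. Chrd had 36.4 CPM at posterior E7.5 and 14.2 CPM at E7.0, a log2 ratio of 1.36 (0.74 to 1.92), where the other cells had -0.18. Noto rested on 13 UMIs at posterior E7.5, at 16.9 against 3.13 CPM, and its log2 ratio was 2.43, where the other cells had 0.06. For Noto 6 of the 13 UMIs came from 1 cell, and without it Noto had 9.17 CPM. Of 6 node and notochord genes at 20 CPM or more 3 were past 2-fold, Foxj1, Chrd and T. The median of the list was 0.96, beside -0.02 over all genes at 50 CPM or more. Foxj1 had 33.8 CPM at posterior E7.5 and 16.5 CPM at E7.0, but 6 of its 26 UMIs came from 1 cell, and without that cell it had 26.5 CPM, under 2-fold. Of 10 mesoderm genes Kdr and Gata6 were lower. The median mitochondrial share of the Gsc Eomes cells was 3.39% at posterior E7.5 and 2.20% at E7.0, and that of the other kept cells was 3.44% and 2.28%. Of 6 immediate early genes, which are known to respond to dissociation, Egr1 (39.0 against 6.73 CPM) and Jun (101 against 48.6 CPM) were past 2-fold in Gsc Eomes cells, and without its highest cell Jun had 91.1 CPM, under 2-fold. Their part in the stage comparison was not tested. Cer1 had 87.1 against 14.5 CPM, but 30 of its 67 UMIs came from 1 cell, and without that cell it had 49.1 CPM. With the rule applied to thinned cells its log2 ratio for posterior E7.5 against E7.0 was -0.63, in place of 2.58. Among the lowest genes were histone genes such as Hist1h4d (23.4 CPM at posterior E7.5 and 199 CPM at E7.0). For the histone genes, Kdr, Gata6, Egr1 and Jun, the ratio in the other kept cells is not given here. Whether those cells shared these changes is therefore not shown.

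Chrd and Foxa2 met in single cells at that stage as at E7.0. Of 13 thinned posterior E7.5 cells with Foxa2, 53.8% held Chrd and 15.4% held Mesp1, against 8.16% and 73.5% of 49 cells without Foxa2. At E7.0 the share with Chrd was 25.9% of cells with Foxa2 and 3.38% of cells without it. At E7.25 only 6 of 41 thinned cells held Foxa2, and none of them held Mesp1. The pairing of Chrd with Foxa2 was not particular to Gsc Eomes cells. In Eomes cells without Gsc, Chrd was found in 36.9% of cells with Foxa2 and 2.15% of cells without it at E7.0. At posterior E7.5 the same shares were 44.9% of 49 cells and 3.11% of 1541 cells.

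**Figure D5:**
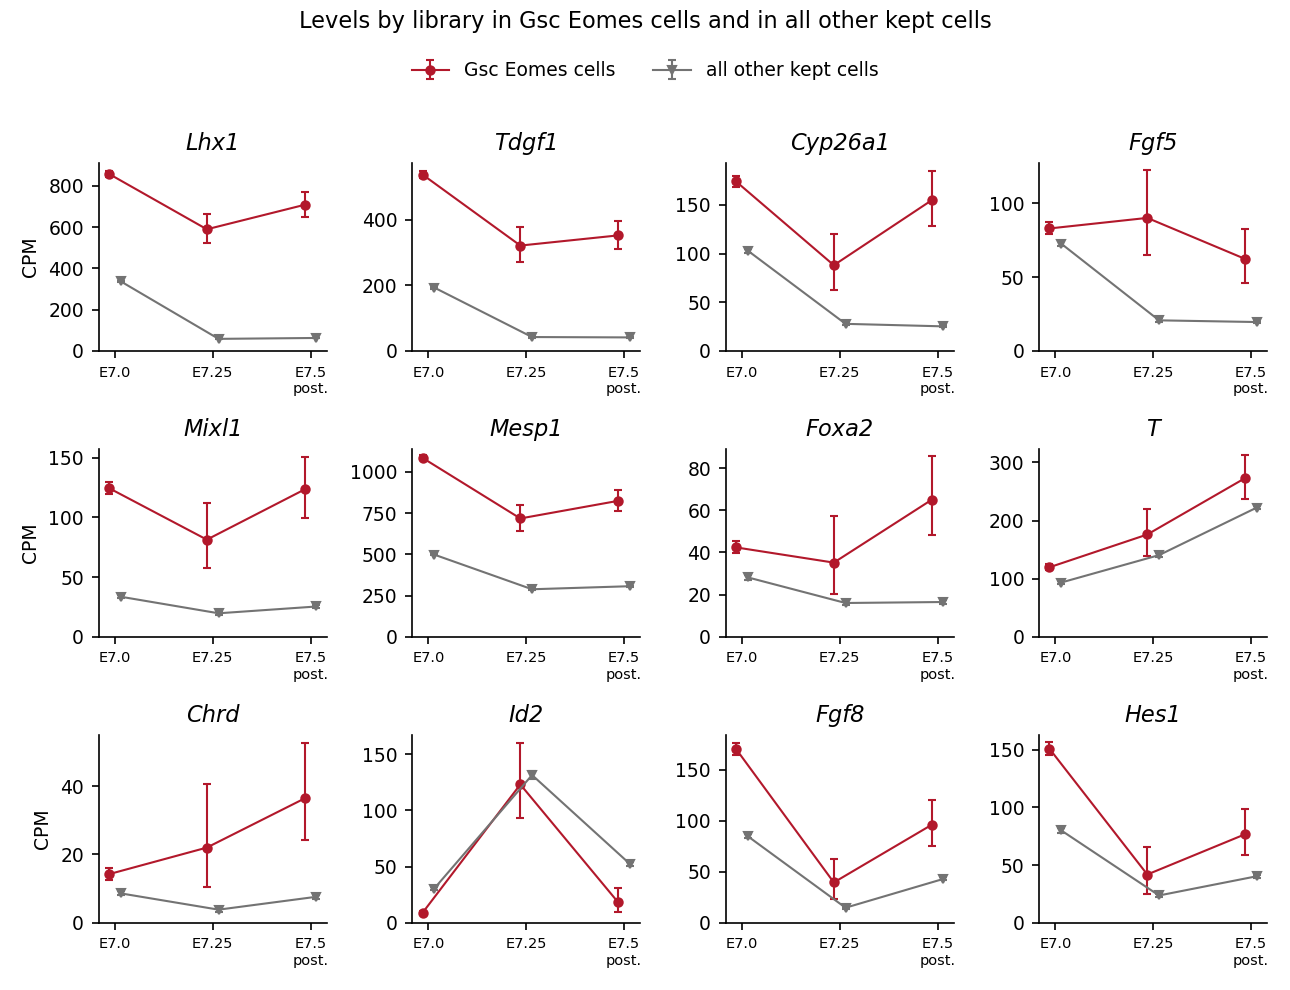
Level (CPM of summed UMIs) of 12 genes by library in Gsc Eomes cells and in all other kept cells, with exact 95% Poisson intervals. Lhx1, Tdgf1 and Fgf5 are low in the other cells after E7.0 and less so in the Gsc Eomes cells, where Cyp26a1 has 174, 88.0 and 155 CPM, while T is higher at posterior E7.5 in both.

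The 44 cells of E7.25 had more genes past 2-fold against those of E7.0, with 97 of 3066 genes higher (3.16%) and 78 lower (2.54%). Fgf8 (39.6 against 171 CPM) and Hes1 (41.8 against 151 CPM) were lower, as they were in the other kept cells, where 46 of 3004 genes were higher (1.53%) and 55 lower (1.83%). Higher genes included Id2 (log2 ratio 3.80) and Bmp4 (3.21), genes of BMP signalling, and the imprinted gene H19 (2.97). Of 8 immediate early genes at 20 CPM or more, Fos, Jun, Junb and Egr1 were past 2-fold. For Junb 4 of 11 UMIs came from 1 cell, and without it Junb had 15.7 CPM at E7.25, against 9.40 CPM at E7.0, under 2-fold. In the other kept cells Id2 was at 2.11, Bmp4 at 2.19, H19 at 1.93 and Egr1 at 1.97, so the direction was shared. Krt18 was at 2.02 in Gsc Eomes cells and 0.70 in the other cells. With so few cells, single cells carried some of these values. The highest cell of each gene, a different cell for each, gave 19 of 25 Ahnak UMIs, 17 of 56 Id2 UMIs and 10 of 23 Cer1 UMIs. Without its own highest cell Ahnak had 14.0 CPM, Id2 87.3 CPM and Cer1 29.3 CPM, in place of 55.0, 123 and 50.6 CPM.

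Markers of other cell types moved with some of these results. Summed over 6 extraembryonic mesoderm genes, Gsc Eomes cells had 38.8, 235 and 29.9 CPM at E7.0, E7.25 and posterior E7.5, and the other kept cells had 54.7, 228 and 101 CPM. At E7.25, where Id2, Bmp4 and Krt18 were high, 4 of the 6, Hand1, Bmp4, Ahnak and Spin2c, were past 2-fold against E7.0, while Tbx4 and Postn were at 0. Over 8 extraembryonic ectoderm genes the Gsc Eomes cells had 3.59, 55.0 and 6.50 CPM and the other cells 18.0, 69.4 and 11.5 CPM. At E7.25, 5 of 44 Gsc Eomes cells held an Elf5 UMI, while Wnt7b, Rhox6, Rhox9 and Plac1 were at 0. Without those 5 cells the log2 ratio of Id2 for E7.25 against E7.0 was 2.08 and that of Krt18 was 1.24, with 107 genes higher and 88 lower in all. Over 6 visceral endoderm genes outside the rule the Gsc Eomes cells had 13.9, 37.4 and 9.10 CPM and the other cells 428, 739 and 198 CPM, with Hnf4a and Soat2 at 0 at both later stages. Over 8 blood and endothelial genes the Gsc Eomes cells had 43.0, 79.2 and 24.7 CPM and the other cells 41.3, 66.6 and 33.8 CPM, with the globin genes Hba-x and Hbb-bh1 at 0 in Gsc Eomes cells at all 3 stages.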

How the data were processed

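The deposited files are UMI count matrices, unscaled whole numbers for the barcodes kept by the authors' software. That software was Cell Ranger 6.0.1, according to the headers, and the genome build is not given in the sources used here. Annotation release GENCODE M21 (GRCm38) holds 32235 of the 32285 gene identifiers and was used for chromosomes only; no per-sample column was left unused.

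Counts were summed over the cells of a population in 1 library and scaled to CPM. Ratios are log2 of CPM, with conditional binomial intervals for ratios, Poisson intervals for CPM and Clopper-Pearson intervals for shares. A gene was called higher or lower at 2-fold or more among genes at 50 CPM or more on either side, or, within a list, at 20 CPM or more. Shares and medians over all genes use the minimum of 50 CPM, also where they stand beside a list. Genes used to define a population were left out of its comparison. Levels are compared between populations, never between genes. A gene without UMIs on a side would be bounded against 3 UMIs summed over the population. For shares of cells, each cell was thinned to 5000 UMIs without replacement and shallower cells were left out.

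Doublets were scored per library by a Scrublet-like score, coded anew (2 simulated doublets per cell, 30 neighbours, 30 components, 2000 genes), the top 0.8% per 1000 cells were marked, and marked cells were kept. In simulated data of 2100 cells per library, 39, 39 and 36 of 100 planted doublets were among the top 100 scores at E7.0, E7.25 and posterior E7.5. Doublets therefore remain unmarked. On simulated counts, the call rule found 100 of 100 genes changed by 3-fold and none of 2464 unchanged genes for Gsc Eomes cells against other kept cells at E7.0, and 90 of 100 and 5 of 2436 for E7.25 against E7.0.

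The genes named are the measured members of 29 lists and, by rank of the ratio, the 12 highest and 8 lowest against other kept cells and against Eomes cells without Gsc at E7.0 and the 8 highest and 8 lowest of each other comparison, leaving out genes that are mitochondrial, Y-linked, Xist, Tsix, Gm, Rik or of ribosomal proteins. Genes of the rule, of its near misses and of doublet or background checks are given besides. The cell rule, the lists and the comparisons were chosen with earlier results of these data known. Software was python 3.11.15, numpy 2.4.6, scipy 1.17.1, pandas 2.3.3, scikit-learn 1.9.0 and matplotlib 3.10.9.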

Additional observations from a re-analysis of the deposited data

How the results depend on the processing

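Requiring 2 or more Gsc UMIs left 584, 12 and 18 cells, or 7.35%, 0.231% and 0.213% of kept cells at E7.0, E7.25 and posterior E7.5. Against Eomes cells without Gsc 11 genes were then higher, 362 were higher and 203 lower at E7.25 against E7.0, and 83 were higher and 86 lower at posterior E7.5 against E7.0. The thinned E7.0 shares became 21.8% for Foxa2, 87.2% for Lhx1, 49.7% for Fst, 40.6% for T, 65.8% for Mesp1, 48.7% for Mixl1, 42.0% for Otx2, 8.64% for Cer1, 13.6% for Hhex, 10.02% for Chrd and 3.97% for Foxa2 with Mesp1. With the rule applied after thinning, 574, 21 and 19 cells remained (7.83%, 0.448% and 0.248%). Counts were then 184 higher and 155 lower at E7.25 and 61 higher and 75 lower at posterior E7.5. Shares were 20.9% for Foxa2, 83.8% for Lhx1, 38.0% for T, 65.3% for Mesp1, 42.2% for Mixl1, 40.4% for Otx2, 8.54% for Cer1 and for Chrd, 13.9% for Hhex and 4.88% for Foxa2 with Mesp1. Only this setting turned a called value round: Cer1 to -0.37 at E7.25 and -0.63 at posterior E7.5, and Krt18 to -0.65 at posterior E7.5, all with intervals that included 0 and fewer cells. At least 2000 detected genes gave a share of 16.6% at E7.0, and removal of predicted doublets 14.5%.

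At a minimum of 20 CPM more genes were counted: 21 higher and 118 lower against other kept cells, 8 and 13 against Eomes cells without Gsc, 72 and 109 against Sox17 Foxa2 cells, 15 and 11 against Mesp1 cells, 53 and 57 between cells with and without Foxa2, 92 and 87 between cells with and without Mesp1, 340 and 171 at E7.25 against E7.0, and 65 and 63 at posterior E7.5 against E7.0. Thinning to 3000 UMIs lowered each share, by construction: Foxa2 10.5%, Lhx1 73.7%, Fst 35.1%, T 23.6%, Mesp1 67.0%, Mixl1 26.8%, Otx2 26.4%, Cer1 3.94%, Hhex 5.17%, Chrd 4.02% and Foxa2 with Mesp1 1.64%. Leaving out the E7.25 cells with an Elf5 UMI, chosen after seeing the data, gave 107 higher and 88 lower genes. Scaling by the median ratio moved ratios by -0.03 to 0.03. Over 759 named ratios and settings the sign was kept in 727 and changed in 32. The ratio stayed within its main interval in 610, moved outside it in 146 and turned round from a called value in 3. Among shares of cells and counts of genes, 65 went outside the range set for them and 124 did not. No paired analysis was possible because each stage is 1 library and no test was run. With 44 and 62 cells, ratios at the later stages rest on few UMIs, and the spread between embryos is not known.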

Other observations

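Several other gene groups were measured in the Gsc Eomes cells of E7.0 against the other kept cells, with list genes counted at 20 CPM or more. Of all genes at 50 CPM or more, 0.398% were higher and 1.67% lower by 2-fold or more, with a median log2 ratio of 0.02. Of 14 glycolysis genes only the glucose transporter gene Slc2a3 was past 2-fold, in the lower direction, and the median of the list was 0.02. Of 11 imprinted genes H19, Igf2 and Peg10 were lower, with a median of -0.29. Among 6 matrix genes Vcan, which encodes the proteoglycan versican, was higher and none was lower. The 3 germ cell markers Dppa3, Prdm1 and Nanos3 summed to 1.69 CPM in Gsc Eomes cells and 4.37 CPM in other kept cells.

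Between cells with and without Foxa2 at E7.0, the BMP ligand genes Bmp2 and Bmp7 were higher and Id1 and Smad1 lower, of 9 BMP pathway genes measured. Of all genes at 50 CPM or more, a higher minimum than the 20 CPM of the lists, 0.618% were higher and 0.763% lower. Of 4 NOTCH pathway genes the receptor gene Notch1 and the ligand gene Dll3 were lower, and of 5 matrix genes Fn1 and Vcan were lower.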
